A study of Homo sapiens with 9 samples.

Results

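The 240 genes described here are the protein-coding genes of the deposited count table with symbols from ZNF500 to ZNF899, out of 60662 genes in all, 20004 of them protein-coding. The rule uses the name and no measured value, though the set was proposed with earlier results of these data known, and the question put to them was how many are expressed and how many are switched off or on in *DYRK1A* knockout (KO) cells. The table also holds 232 other protein-coding genes named ZNF and a number, which serve as the nearest comparison.

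RNA-seq was made from SET2 cells, a *JAK2*-mutant megakaryoblastic line that the labels describe as AML arising after a myeloproliferative neoplasm, in 9 untreated libraries: parental cells that were WT for *DYRK1A* (n = 3) and 2 KO clones, 11H1 and 14B5 (also n = 3 for each). Each KO clone grew from a single sorted cell after delivery of a Cas9 ribonucleoprotein and was kept for carrying out-of-frame indels only. The libraries of a clone therefore share a founder cell, no clone of an unedited cell was sequenced, and what the founder cells carried cannot be told apart from the loss of DYRK1A. No source used here says whether libraries came from separate cultures, so p values measure the spread between these libraries, which may be technical. Tests of KO versus WT pool both clones as replicates, so their spread also holds the difference between the clones. All values are bulk levels, in which fewer cells of a type and less RNA per cell cannot be told apart.

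ZNF symbols are handed out in order of naming, so the members share a fold more than a function. Most encode C2H2 zinc finger proteins, in which short loops, each held by a zinc ion between a cysteine pair and a histidine pair, lie in a row and read DNA bases. Many also carry a KRAB domain, which recruits the co-repressor TRIM28 (KAP1) and through it the histone methyltransferase SETDB1, HP1 proteins and DNA methyltransferases, and this route is best known for silencing transposable elements. KRAB zinc finger genes have multiplied by duplication and stand in dense clusters, above all on chromosome 19.

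That layout held for the members. GENCODE v29 on GRCh38 placed all 240, with 127 on chromosome 19, 17 each on chromosomes 7 and 16, 14 on chromosome 1 and 13 on chromosome 3. The translated coding sequences held a median of 10 finger motifs (0 to 34), and 154 members held a KRAB motif, 107 of them on chromosome 19. On that chromosome 113 members fell in 6 runs of at least 5 in which no gap between members exceeded 1000000 bases.

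Depth and identity of the libraries were checked first. Total expected counts ran from 32347779 to 60272245 a library, and 3 counts, the limit that a count of 0 allows, equalled 0.0502 to 0.0913 CPM (counts brought to a common library size with TMM scaling). These limits cover counting error only. *DYRK1A* RNA was at 196 to 218 CPM in WT, 188 to 192 in 11H1 and 174 to 191 in 14B5. Its log2FC was −0.09 in 11H1 (adjusted p = 0.131) and −0.17 in 14B5 (adjusted p = 0.0278, both in edgeR). A count of RNA does not show the reading frame. For the protein, the paper reports a western blot check of the KO in the HEL and SET2 lines. Of 12 megakaryoblast markers 10 averaged at least 1 CPM, and the list summed to 3303 to 3398 CPM in WT, 2612 to 2728 in 11H1 and 2672 to 2727 in 14B5. The genes of this list did not move alike. *CD34* averaged 271 CPM in WT, 100 in 11H1 and 48.4 in 14B5, while *TAL1* averaged 243, 333 and 310 CPM. Erythroid markers summed to 1390.4 to 1631 CPM in WT, 1812 to 2009.6 in 11H1 and 1447 to 1717 in 14B5, with all 4 at 1 CPM or more. T and NK cell markers (2 of 4 at 1 CPM or more) summed to 18.8 to 20.7 CPM in WT, 14.2 to 14.9 in 11H1 and 18.3 to 19.9 in 14B5, and B cell markers (1 of 3) to 20.8 to 23.3, 16.03 to 16.2 and 11.1 to 13.0. Epithelial markers (2 of 3) summed to 10.1 to 10.6 CPM in WT, 23.8 to 27.0 in 11H1 and 35.8 to 36.8 in 14B5. None of 4 fibroblast markers reached a mean of 1 CPM, *DCN* being under 0.1 CPM in every library. The part of these lists in the results below was not tested.

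Nearly all members were expressed. A member was called on in a group at 0.5 CPM or more in every library, and off at under 0.1 CPM in every library. In WT 217 of 240 were on (90.4%), in 11H1 216 (90.0%) and in 14B5 215 (89.6%). Among all protein-coding genes the shares were 62.3%, 60.7% and 59.9%, and among the 232 other ZNF genes 92.7%, 92.7% and 92.2%. In all, 213 members were on in every group, 12 were off in every group, and 15 were neither.

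The median of the member means in WT was 14.4 CPM, against 7.11 over all protein-coding genes. Both medians include silent genes: 5.0% of members and 26.2% of all protein-coding genes were off in every group. CPM is also not scaled for transcript length. Per kb of exon, averaged over the 9 libraries, the members with the highest level were *ZNF664* at 36.3 CPM per kb, *ZNF768* at 28.3, *ZNF512* at 26.4, *ZNF670* at 22.8 and *ZNF770* at 22.2. Only *ZNF670* of these holds a KRAB motif, and it shares an annotated readthrough transcript, *ZNF670*-*ZNF695*, with which reads could be divided.

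These 5 members moved in different directions. *ZNF664* was at 190.2, 193 and 204 CPM in WT, 253, 243 and 254 CPM in the 11H1 libraries and 236, 256 and 241 CPM for 14B5. Both clones lay above WT, with a log2FC of 0.33 in KO (SE 0.0540, adjusted p = 0.00114 in edgeR). *ZNF768* was at 73.5, 81.0 and 76.4 CPM in WT, 59.3, 57.2 and 54.8 CPM in the 11H1 libraries and 71.5, 67.9 and 67.6 CPM for 14B5, and fell by 0.29 on the log2 scale in KO (SE 0.0909, adjusted p = 0.0354 in edgeR). *ZNF670* was at 52.5, 50.4 and 57.0 CPM in WT, 35.9, 34.5 and 37.0 CPM in the 11H1 libraries and 47.8, 49.0 and 45.9 CPM for 14B5, so the groups did not overlap. It fell by 0.57 on the log2 scale in 11H1 (SE 0.0567, adjusted p = 3.51e-06) and by 0.18 in 14B5 (SE 0.0562, adjusted p = 0.0208), while the pooled test missed the threshold (log2FC −0.35, adjusted p = 0.0534, all in edgeR). *ZNF512* and *ZNF770* did not pass the test in KO, at a log2FC of 0.11 (SE 0.0534, adjusted p = 0.130) and 0.06 (SE 0.0894, adjusted p = 0.648, both in edgeR).

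The members off in every group included genes known from other tissues. They were *ZNF750*, a factor of epidermal differentiation, *ZNF683* (Hobit), a factor of tissue-resident lymphocytes, *ZNF503*, *ZNF536*, *ZNF556*, *ZNF662*, *ZNF679*, *ZNF732*, *ZNF735*, *ZNF831*, *ZNF860* and *ZNF532*. Among them *ZNF532*, *ZNF732*, *ZNF735* and *ZNF750* were at 0 in all 9 libraries. Of the 12, 2 lie on chromosome 19 and 6 hold a KRAB motif.

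Promoter sequence was described for the members. RefSeq windows on GRCh38.p14, from 250 bases before to 50 after the start, were matched for 199 of 240 members. The ratio of observed to expected CpG had a median of 0.802 in the 180 windows of members on in all groups and 0.487 in the 9 windows of members off in all groups, a difference that was not tested. The ranges overlapped, since 4 of the 9 silent windows and 150 of the 180 others were over 0.6. The median was 0.798 over the 199 member windows, 0.768 over the 14934 windows of protein-coding genes and 0.580 over all 27305 windows. Searched on both strands, the GC box letters GGGCGG stood in 66.3% of member windows, 59.4% of protein-coding windows and 44.6% of all windows. TATAAA stood in 4.02%, 9.37% and 11.95%, GCATGCGC, the NRF1 core, in 5.53%, 4.28% and 3.27%, and CTCGCGAG in 0.503%, 1.57% and 1.058%. A match describes letters only.

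The upstream 250 bases of 5 members, picked by hand from those named in the results, are printed 5′ to 3′ on the gene's strand. Each CpG is in capitals. No window was matched for *ZNF728*, *ZNF676* or *ZNF665*, so these could not be shown. *ZNF608* (chr5:124748825-124749074, minus strand) and *ZNF723* (chr19:22832041-22832290, plus strand) were low genes that crossed or neared the limits between groups. *ZNF880* (chr19:52369673-52369922), *ZNF528* (chr19:52397599-52397848) and *ZNF578* (chr19:52453303-52453552), all on the plus strand, stand near each other on chromosome 19 and rose in KO.
ZNF608: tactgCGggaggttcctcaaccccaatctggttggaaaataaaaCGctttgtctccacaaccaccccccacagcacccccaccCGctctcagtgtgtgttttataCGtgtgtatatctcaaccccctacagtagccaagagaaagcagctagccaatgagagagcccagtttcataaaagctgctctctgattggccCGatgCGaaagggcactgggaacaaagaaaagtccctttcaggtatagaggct
ZNF723: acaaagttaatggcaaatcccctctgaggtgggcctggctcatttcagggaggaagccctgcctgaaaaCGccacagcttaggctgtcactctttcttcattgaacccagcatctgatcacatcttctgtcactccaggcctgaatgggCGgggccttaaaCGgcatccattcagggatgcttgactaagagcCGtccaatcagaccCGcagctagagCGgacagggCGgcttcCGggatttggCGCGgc
ZNF880: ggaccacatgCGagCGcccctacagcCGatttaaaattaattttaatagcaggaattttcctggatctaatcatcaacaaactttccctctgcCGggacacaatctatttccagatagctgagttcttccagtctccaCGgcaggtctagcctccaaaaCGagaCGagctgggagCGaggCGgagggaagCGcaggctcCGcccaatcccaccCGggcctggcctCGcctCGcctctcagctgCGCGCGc
ZNF528: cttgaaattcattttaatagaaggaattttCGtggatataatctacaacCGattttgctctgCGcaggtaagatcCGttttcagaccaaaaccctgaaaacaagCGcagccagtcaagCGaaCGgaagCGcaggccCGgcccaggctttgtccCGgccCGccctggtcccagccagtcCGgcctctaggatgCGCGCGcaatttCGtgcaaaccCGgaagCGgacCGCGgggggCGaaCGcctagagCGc
ZNF578: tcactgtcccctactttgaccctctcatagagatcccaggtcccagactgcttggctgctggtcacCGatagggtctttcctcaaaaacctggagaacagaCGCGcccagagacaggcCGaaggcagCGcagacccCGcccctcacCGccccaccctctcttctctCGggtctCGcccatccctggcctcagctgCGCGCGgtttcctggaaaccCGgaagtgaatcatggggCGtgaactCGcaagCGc
The 2 low genes had 6 and 10 CpG in these bases and ratios over the 300-base window of 0.317 and 0.436. The 3 genes that rose had 17, 23 and 16 CpG and ratios of 0.847, 1.13 and 0.734. Searched on both strands, the *ZNF608* window held the letters TATAAA and no GGGCGG, and each of the other 4 held GGGCGG and no TATAAA. In the printed bases, TATAAA of *ZNF608* and GGGCGG of *ZNF880*, *ZNF528* and *ZNF578* stand on the opposite strand.

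A single member was switched off, *ZNF728*, and in both clones. *ZNF728* (ENSG00000269067.1, chr19:22975468-23003176, minus strand) encodes a KRAB zinc finger protein with 14 finger motifs. It was at 0.691, 0.922 and 1.19 CPM in the WT libraries, 0.0183, 0.0609 and 0.0304 CPM in the 11H1 libraries and 0, 0 and 0.0522 CPM for 14B5. Every KO library lay under 0.1 CPM and every WT library above 0.5 CPM, so the groups did not overlap. The counts behind these values were 127 over the WT libraries, 4 over those of 11H1 and 3 over those of 14B5. Scaled for depth, WT was 27.7-fold above 11H1 (95% exact interval 10.5 to 103, counting error only) and 49.5-fold above 14B5 (16.6 to 243). The log2FC fitted by edgeR was −4.67 in 11H1 (SE 0.461, adjusted p = 3.21e-06) and −5.48 in 14B5 (SE 0.590, adjusted p = 3.17e-05).

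No member was switched on in either clone, and none was on in a clone and off in the other. Of the 12460 protein-coding genes on in WT, 85 were switched off in 11H1 (0.682%), 109 in 14B5 (0.875%) and 69 in both (0.554%), so 1 of the 217 members on in WT is near that background. Of the 5594 protein-coding genes off in WT, 3 were switched on in 11H1 (0.0536%) and 4 in 14B5 (0.0715%). None of the 232 other ZNF genes was switched in either direction. WT levels of *ZNF728* stood close to the limit for on. With that limit at 1 CPM no member was switched, and without 14B5 library 1 the count in 14B5 was 2 instead of 1, because *ZNF608* was added, while *ZNF723* then counted as on in 11H1 and off in 14B5.

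The members nearest the limits were low genes in each group. In WT the lowest library of *ZNF837* was at 0.656 CPM, just inside on, and that of *ZNF774* at 0.440 CPM, just outside. In 11H1 *ZNF723* at 0.639 CPM was just inside and *ZNF575* at 0.202 CPM just outside. In 14B5 *ZNF781* at 0.636 CPM was just inside and *ZNF676* at 0.278 CPM just outside. For the limit of off, taken on the highest library, *ZNF843* at 0.0838 CPM was inside and *ZNF703* at 0.102 CPM outside in WT. *ZNF541* was inside in both clones, at 0.0913 CPM in 11H1 and 0.0669 CPM in 14B5, and the members just outside were *ZNF843* at 0.122 CPM in 11H1 and *ZNF723* at 0.113 CPM in 14B5.

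Several members changed between high and low states without meeting both limits. *ZNF608* (ENSG00000168916.15, chr5:124636913-124748807, minus strand), the paralogue of *ZNF609*, was at 0.813, 0.838 and 1.17 CPM in WT, 0.257, 0.183 and 0.182 CPM in the 11H1 libraries and 0.181, 0.0502 and 0.0870 CPM for 14B5. All WT libraries were above all KO libraries. It fell in both clones, with a log2FC of −2.10 in 11H1 (SE 0.292, adjusted p = 5.44e-05) and −3.21 in 14B5 (SE 0.374, adjusted p = 5.53e-05, both in edgeR).

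*ZNF676* (ENSG00000196109.8, chr19:22179091-22215775, minus strand), a KRAB member with 14 finger motifs, fell further in 14B5 than in 11H1. It was at 2.48, 2.77 and 2.75 CPM in WT, 1.74, 1.74 and 1.73 CPM in the 11H1 libraries and 0.339, 0.401 and 0.278 CPM for 14B5. The 3 groups did not overlap. The log2FC was −0.61 in 11H1 (SE 0.134, adjusted p = 0.00177) and −2.98 in 14B5 (SE 0.179, adjusted p = 4.94e-07), and 11H1 was above 14B5 by 2.35 (SE 0.212, adjusted p = 1.87e-06, edgeR).

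*ZNF723* (ENSG00000268696.2, chr19:22832321-22858667, plus strand), a KRAB member with 12 finger motifs, moved the other way in 11H1. It was at 0.163, 0.231 and 0.219 CPM in WT, 1.16, 0.639 and 1.28 CPM in the 11H1 libraries and 0.113, 0.0836 and 0.0522 CPM for 14B5. It rose in 11H1 with a log2FC of 2.34 (SE 0.328, adjusted p = 5.77e-05) and was 3.64 higher there than in 14B5 (SE 0.382, adjusted p = 6.35e-06, edgeR). The filter on low counts left it out of 14B5 versus WT, where the libraries did not overlap.

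Also, 2 members had reads in every WT library and next to none in KO, at levels too low for the edgeR fits. *ZNF729*, with 34 finger motifs the longest row of fingers among the members, was at 0.183, 0.147 and 0.219 CPM in WT, at 0, 0 and 0.0304 CPM in 11H1 and at 0 CPM in all 14B5 libraries. Its 25 WT counts put WT 21.8-fold above 11H1, which had 1 count (95% exact interval 3.57 to 894). Set against 3 counts over the 14B5 group, WT was 9.75-fold higher, a ratio that leaves out counting error in WT. *ZNF630*, on chromosome X, was at 0.163, 0.273 and 0.0729 CPM in WT and at 0 in all 6 KO libraries. Set against 3 counts in the same way, *ZNF630* was 6.97-fold higher in WT for 11H1 and 9.36-fold higher for 14B5. It overlaps *ZNF182* on the same strand and *ZNF81*, *SPACA5* and its antisense gene on the other, so its reads could be divided. Neither met the limit for on in WT.

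*ZNF883* varied widely within groups. It was at 0, 1.22 and 1.07 CPM in WT, 2.16, 0.426 and 0 CPM in the 11H1 libraries and 0.0226, 0 and 0.331 CPM for 14B5, and the groups overlapped. An annotated pseudogene of the same symbol and *ZFP37* overlap it on the same strand, so its reads could be divided.

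Of the other members between the limits, 2 were called in KO. *ZNF703* was at 0.102, 0.0629 and 0.0729 CPM in WT, 0.165, 0.213 and 0.0912 CPM in the 11H1 libraries and 0.316, 0.184 and 0.383 CPM for 14B5, with a log2FC of 1.498 in KO (SE 0.491, adjusted p = 0.0411 in edgeR), and 11H1 overlapped WT. *ZNF774* was at 0.569, 0.440 and 0.486 CPM in WT and at 0.655 to 0.973 CPM in KO, without overlap, a log2FC of 0.65 (SE 0.206, adjusted p = 0.0353 in edgeR). *ZNF837* was at 0.656 to 0.732 CPM in WT, 0.182 to 0.550 CPM in the 11H1 libraries and 0.644 to 0.813 CPM for 14B5, and did not pass the test in 11H1 (log2FC −0.74, adjusted p = 0.0575 in edgeR). *ZNF575* stayed at 0.183 to 0.340 CPM in all 9 libraries, and *ZNF541*, *ZNF648*, *ZNF534* and *ZNF843*, at 0 to 0.325 CPM, were too low for the fits. Of these *ZNF541* was at 0.325, 0.105 and 0.146 CPM in WT, 0.0550, 0.0913 and 0.0608 CPM in the 11H1 libraries and 0.0226, 0.0669 and 0.0522 CPM for 14B5, from 1 to 16 counts a library. All its WT libraries lay above all KO libraries, and this was not tested.

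**Figure D1:**
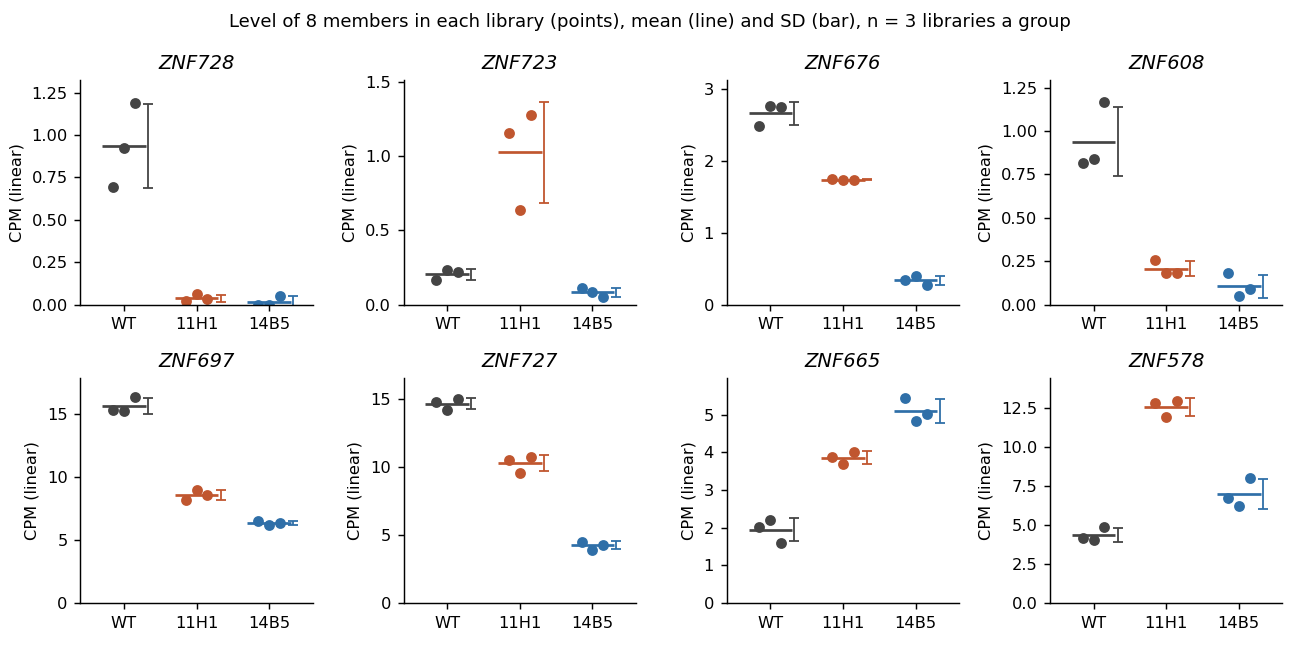
Level of 8 members in each library. Each panel gives CPM on a linear axis from 0 for WT, 11H1 and 14B5, with points for libraries, a line for the mean and a bar for the SD (n = 3). *ZNF728* was near 0 in both clones, *ZNF723* was high in 11H1, *ZNF676* and *ZNF727* were lowest in 14B5, and *ZNF665* and *ZNF578* were higher in every KO library than in WT.

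Of these low or switched members 4 lie close together. From the start of *ZNF676* to the end of *ZNF730*, 968129 bases of chromosome 19, the annotation holds 8 protein-coding genes, of which 5 are members, in the order *ZNF676*, *ZNF729*, *ZNF98*, *ZNF492*, *ZNF99*, *ZNF723*, *ZNF728* and *ZNF730*. This stretch was picked after its values were seen. The nearest protein-coding gene below *ZNF728* is *ZNF723*, 116801 bases away, and the nearest above is *ZNF730*, 72034 bases away. *ZNF730* was at 5.33, 4.61 and 4.40 CPM in WT, 6.16, 5.998 and 6.78 CPM in the 11H1 libraries and 6.66, 6.52 and 5.90 CPM for 14B5. It rose in both clones, with a log2FC of 0.40 in 11H1 (adjusted p = 0.00528) and 0.39 in 14B5 (adjusted p = 0.0105, both in edgeR). Beyond it in the same run of 15 members, *ZNF724*, *ZNF675*, *ZNF681* and *ZNF726* were called higher in both clones, at log2FC of 0.33, 0.28, 0.21 and 0.39 in 11H1 and 0.42, 0.26, 0.47 and 0.21 in 14B5. Of the genes in the stretch that are not members, *ZNF492* rose by 1.19 in 11H1 (adjusted p = 1.17e-06) and 0.82 in 14B5 (adjusted p = 0.000140, both in edgeR). *ZNF98* fell in 14B5 (log2FC −1.23, adjusted p = 0.00442) but did not pass in 11H1 (−0.07, adjusted p = 0.818, both in edgeR). *ZNF99* had no counts in any library. Adjacent genes thus differed in both direction and size.

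**Figure D2:**
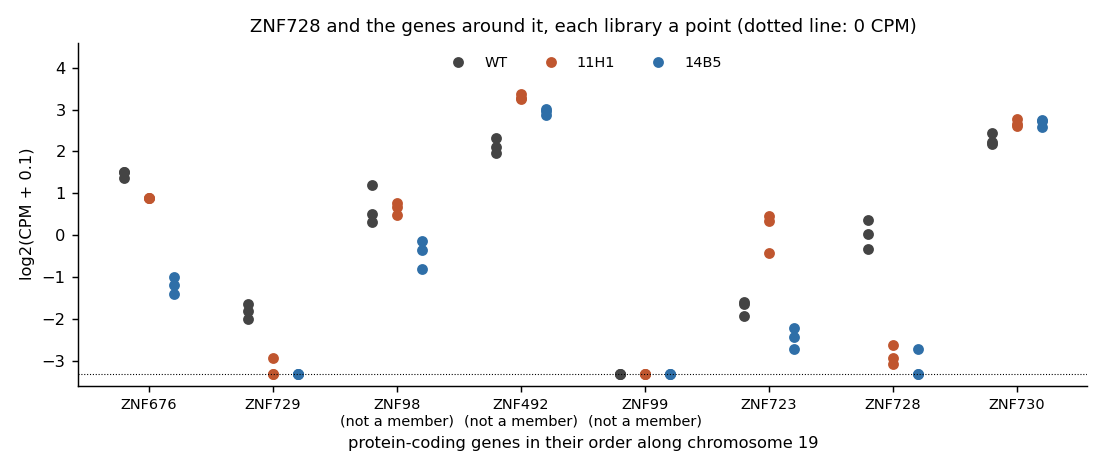
*ZNF728* and the genes around it. The y axis is log2(CPM + 0.1), the x axis the genes in their order along chromosome 19, and each point a library of WT, 11H1 or 14B5. The KO libraries of *ZNF728* and *ZNF729* sit at or near the dotted line of 0 CPM, while those of *ZNF730* lie above WT.

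The members as a group were higher in KO. Summed over all 240, they took 5452, 5494 and 5748 CPM in WT, 6809.6, 6524 and 6732 CPM in 11H1, and 6188, 6268 and 6018 CPM in 14B5. The 3 groups did not overlap, with 11H1 the highest and WT the lowest. The sum of the 232 other ZNF genes lay at 6333 to 6652 CPM in WT, 7863 to 8249 in 11H1 and 7117 to 7444 in 14B5. Mitochondrial genes took 3.53% to 6.17% of counts in WT, 7.12% to 7.31% in 11H1 and 3.35% to 3.95% in 14B5, and the part of this share in the sums was not tested.

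Most of that rise lay in members with a KRAB motif. The 154 of them summed to 2930.2, 2935 and 3085 CPM in WT, 3927, 3751 and 3926 CPM in 11H1, and 3584, 3589 and 3441 CPM in 14B5, again without overlap between groups. The 86 members without the motif summed to 2522, 2559.5 and 2663 CPM in WT, 2883, 2772 and 2806 CPM in 11H1, and 2604, 2679.5 and 2577 CPM in 14B5. There 11H1 was above both other groups, while 14B5 and WT overlapped.

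**Figure D3:**
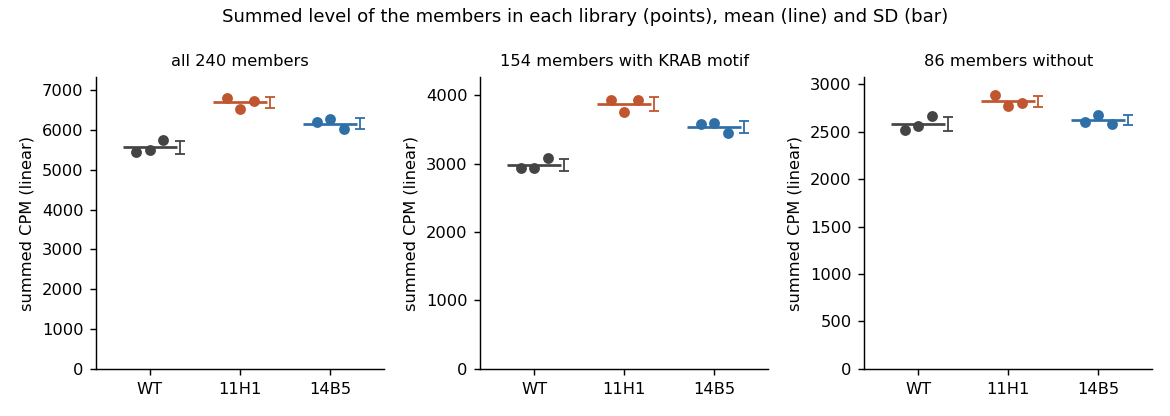
Summed level of the members by library. The y axes are summed CPM on linear scales from 0, for all 240 members, the 154 with a KRAB motif and the 86 without, with points for libraries, a line for the mean and a bar for the SD (n = 3). The sum of KRAB members lay at 2930.2 to 3085 CPM in WT and at 3441 to 3927 CPM in KO.

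Gene by gene, KO versus WT (6 libraries against 3) could be tested for 222 members, and the 18 others were removed by the filter on low counts. With edgeR's quasi-likelihood test over 17080 genes, 90 members were higher and 10 lower in KO (adjusted p under 0.05). Over all genes tested 14.3% were higher and 17.7% lower, so calls among members leaned upward where the background did not. The median log2FC was 0.25 in members and 0.02 in all genes. Without a WT library, whichever it was, 5 or 6 members were lower and 66 to 77 higher. The shifts were small: for a log2FC beyond 1 (edgeR's glmTreat) no member was called higher (0.392% of all genes) and 2 lower (3.82%), *ZNF728* and *ZNF608*.

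Each clone alone gave more calls. The common coefficient of variation in edgeR was 0.0583 for 11H1 versus WT and 0.0673 for 14B5 versus WT. For KO versus WT, which pools the clones, it was 0.185. In 11H1 versus WT 139 of 221 members were higher and 21 lower, against 31.8% and 32.8% of all genes, with a median log2FC of 0.32 in members and −0.01 in all genes. In 14B5 versus WT 102 of 220 were higher and 29 lower, against 24.9% and 28.7%, with medians of 0.19 and −0.01. Beyond a log2FC of 1, 4 members were higher (2.12% of all genes) and 2 lower (5.19%) in 11H1, and 1 higher (0.792%) and 5 lower (7.13%) in 14B5. The 2 comparisons share the WT libraries. Among the other ZNF genes 151 were higher and 15 lower of 219 in 11H1, and 105 and 23 of 219 in 14B5.

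Tested directly, the clones differed for 119 of 220 members. Of these 87 were higher in 11H1 and 32 higher in 14B5, where all genes gave 31.6% and 32.1%. The median log2FC of 11H1 over 14B5 was 0.09 in members and −0.0044 in all genes. Beyond a log2FC of 1, 3 members were higher in 11H1 (3.38% of all genes) and none was lower (0.587%).

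**Figure D4:**
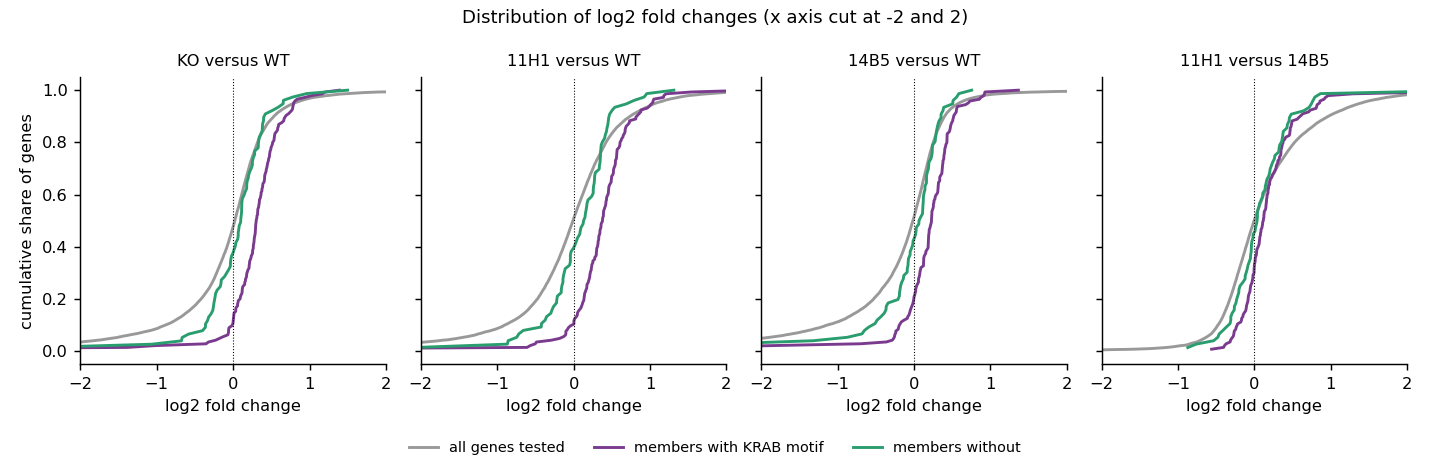
Distribution of log2FC in the 4 comparisons. The x axis is log2FC, cut at −2 and 2, and the y axis the cumulative share of genes, for all genes tested, members with a KRAB motif and members without. Against WT the KRAB curve runs to the right of that of all genes over most of its course, with medians of 0.30 in KO, 0.38 in 11H1 and 0.23 in 14B5.

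The KRAB motif and the chromosome went together, and both were read side by side. In KO versus WT 71 of 145 KRAB members were higher and 3 lower (median log2FC 0.30), against 19 and 7 of 77 members without the motif (median 0.10). In 11H1 the counts were 107 and 8 of 145 (median 0.38) against 32 and 13 of 76 (0.14), and in 14B5 79 and 12 of 144 (0.23) against 23 and 17 of 76 (0.08). On chromosome 19, 61 of 104 KRAB members were higher and 2 lower in KO (median 0.34), while of the 18 other members there 3 were higher and 1 lower (−0.01). On other chromosomes 10 of 41 KRAB members were higher and 1 lower (0.25), and 16 and 6 of 59 others (0.11). Of 839 tested chromosome 19 genes with names outside the zinc finger families 132 were higher and 140 lower, with a median of 0.02. By clone, KRAB members of chromosome 19 gave 82 higher and 5 lower of 104 in 11H1 (0.39). In 14B5 they gave 68 and 4 of 103 (0.27). On other chromosomes, KRAB members gave 25 and 3 of 41 in 11H1 (0.32), against 28 and 10 of 58 others (0.18). In 14B5 KRAB members there gave 11 and 8 of 41 (0.09), no more than the 18 and 13 of 58 others (0.11). The differences between these subsets were not tested.

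All 6 runs of chromosome 19 had positive medians in both clones. Run 5 (chr19:51804816-53496255, *ZNF577* to *ZNF813*) held 27 members, each with a KRAB motif. Of the 26 tested, 18 were higher and 0 lower in KO versus WT (median log2FC 0.48), 21 higher and 1 lower in 11H1 (0.56), and 22 higher and 0 lower in 14B5 (0.36). The lower member in 11H1 was *ZNF813*, at a log2FC of −0.18 (adjusted p = 0.0327 in edgeR). The medians of the other runs in KO versus WT were 0.41 in run 1 (7 members), 0.37 in run 2 (13), 0.30 in run 3 (15), 0.26 in run 4 (18) and 0.23 in run 6 (33). In run 6, 22 tested genes with names outside the zinc finger families gave 7 higher, 1 lower and a median of 0.20. The other runs held too few such genes for this. Choice by name does not leave out annotations that overlap members on the same strand, such as AC003002.1 with *ZNF547*, so reads could be divided between them.

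**Figure D5:**
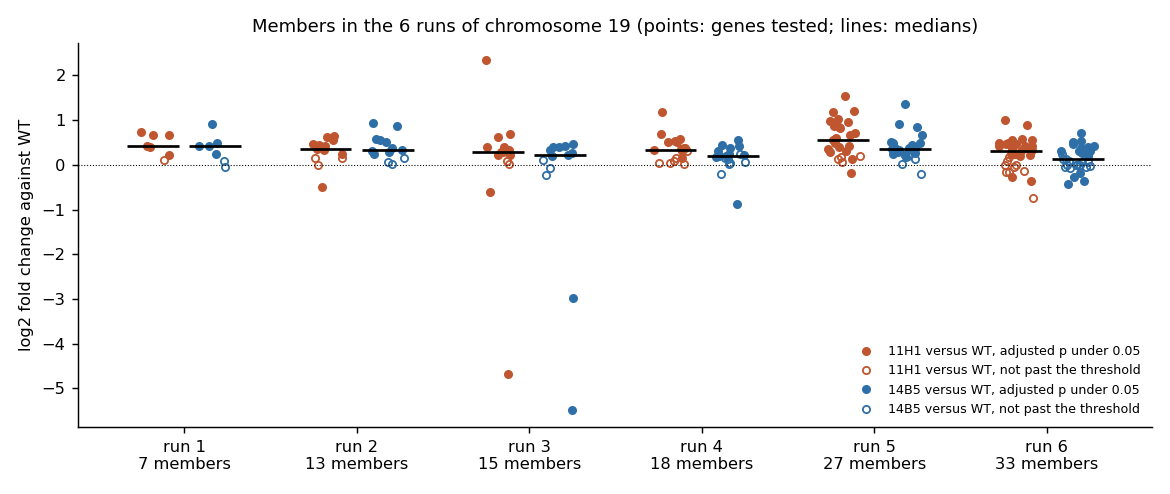
Log2FC of members in the 6 runs of chromosome 19. The y axis is log2FC against WT, points are members tested in 11H1 or 14B5, filled where the adjusted p in edgeR was under 0.05, and black lines are medians. Run 5 stood at medians of 0.56 in 11H1 and 0.36 in 14B5, and the lowest points, both in run 3, are *ZNF728* at −4.67 and −5.48.

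Within run 5 the clones differed in size of change. *ZNF577* was at 16.7, 13.7 and 13.3 CPM in WT, 29.4, 29.1 and 31.0 CPM in the 11H1 libraries and 17.4, 16.8 and 16.7 CPM for 14B5, and 11H1 stood 0.82 above 14B5 (SE 0.0519, adjusted p = 1.19e-07 in edgeR). *ZNF841* was at 31.0, 28.6 and 29.3 CPM in WT, 55.8, 48.0 and 54.2 CPM in the 11H1 libraries and 31.6, 29.8 and 29.6 CPM for 14B5, a gap of 0.81 between the clones (SE 0.0606, adjusted p = 4.48e-07 in edgeR). In both genes 14B5 did not pass the test against WT, at a log2FC of 0.20 (adjusted p = 0.0812) and 0.01 (adjusted p = 0.841). *ZNF649* was at 21.7, 22.1 and 23.8 CPM in WT, 37.1, 34.1 and 36.0 CPM in the 11H1 libraries and 32.7, 32.8 and 31.9 CPM for 14B5, so both clones lay above WT, by 0.67 (adjusted p = 1.17e-06) and 0.51 (adjusted p = 2.48e-05, both in edgeR). *ZNF577* and *ZNF649* overlap on the same strand, so reads could be divided between them. These 3 genes were added after their values were seen.

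Among members of at least 1 CPM in the higher group whose libraries did not overlap, the 5 largest rises in KO versus WT came from run 5 with a single exception. *ZNF665* (chr19:53159213-53193386, minus strand, 18 finger motifs) was at 2.01, 2.20 and 1.604 CPM in WT, 3.87, 3.68 and 4.01 CPM in the 11H1 libraries and 5.44, 4.82 and 5.01 CPM for 14B5. All 6 KO libraries were above WT and 14B5 was above 11H1. Its log2FC was 1.20 (SE 0.176, adjusted p = 0.000599 in edgeR).

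*ZNF578* (chr19:52453576-52512154, plus strand) was at 4.15, 4.02 and 4.86 CPM in WT, 12.8, 11.9 and 13.0 CPM in the 11H1 libraries and 6.73, 6.22 and 8.04 CPM for 14B5. Its log2FC was 1.17 in KO (SE 0.271, adjusted p = 0.00852), and 11H1 stood 0.85 above 14B5 (adjusted p = 8.72e-06, edgeR). *ZNF880* (chr19:52369917-52385795, plus strand) was at 6.69, 6.60 and 6.22 CPM in WT, 15.2, 12.2 and 16.6 CPM in the 11H1 libraries and 10.2, 12.9 and 12.6 CPM for 14B5. Its log2FC was 1.03 (SE 0.149, adjusted p = 0.000586 in edgeR), and the clones overlapped each other but not WT.

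*ZNF525* was at 16.6, 16.3 and 19.7 CPM in WT, 34.6, 31.9 and 35.3 CPM in the 11H1 libraries and 32.0, 35.3 and 32.8 CPM for 14B5. The clones lay together above WT, with a log2FC of 0.94 (SE 0.0796, adjusted p = 1.87e-05 in edgeR). It overlaps *ZNF765*, another member on the same strand, so reads could be divided between them. The exception, *ZNF594* on chromosome 17, has 21 finger motifs and no KRAB motif. It was at 14.1, 14.6 and 14.1 CPM in WT, 37.3, 32.7 and 35.7 CPM in the 11H1 libraries and 20.2, 21.9 and 19.3 CPM for 14B5, a log2FC of 0.96 (SE 0.235, adjusted p = 0.0112, or 0.0512 without WT library 1, edgeR).

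By the same limits, the largest falls in KO versus WT were mostly outside chromosome 19. *ZNF697* (chr1:119619422-119647773, minus strand, no KRAB motif) was at 15.3, 15.2 and 16.4 CPM in WT, 8.18, 8.95 and 8.54 CPM in the 11H1 libraries and 6.48, 6.22 and 6.39 CPM for 14B5. The 3 groups did not overlap, and the log2FC was −1.07 in KO (SE 0.132, adjusted p = 0.000216 in edgeR).

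*ZNF727* (chr7:64045443-64078549, plus strand), a KRAB member, was at 14.7, 14.2 and 14.9 CPM in WT, 10.5, 9.56 and 10.7 CPM in the 11H1 libraries and 4.49, 3.91 and 4.25 CPM for 14B5. The log2FC was −0.50 in 11H1 (adjusted p = 7.96e-05) and −1.81 in 14B5 (adjusted p = 6.13e-08, both in edgeR). With the clones pooled it was −1.02 (adjusted p = 0.0450), and this call was lost without any WT library (adjusted p = 0.111 to 0.118) or any 14B5 library (0.0585 to 0.0687).

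*ZNF622*, a factor in maturation of the large ribosomal subunit, was at 41.0, 41.5 and 41.0 CPM in WT, 25.6, 24.3 and 24.8 CPM in the 11H1 libraries and 27.1, 26.0 and 26.6 CPM for 14B5. It fell by nearly the same amount in each clone, with a log2FC of −0.68 in KO (SE 0.0543, adjusted p = 1.33e-05 in edgeR). *ZNF821* was at 2.603, 2.49 and 2.28 CPM in WT, 1.47, 1.37 and 1.19 CPM in the 11H1 libraries and 1.602, 1.87 and 1.76 CPM for 14B5, a log2FC of −0.67 (adjusted p = 0.0119, or 0.0544 and 0.0536 without WT library 1 or 2, edgeR). It overlaps *IST1* and *ATXN1L* on the opposite strand. *ZNF792*, a KRAB member of chromosome 19, was at 40.4, 40.6 and 43.3 CPM in WT and at 31.8 to 34.2 CPM in KO, a log2FC of −0.32 (adjusted p = 0.00122 in edgeR).

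By those limits, the largest rises in 11H1 versus WT beside *ZNF723*, *ZNF578*, *ZNF594* and *ZNF880* included *ZNF528*. *ZNF528* (chr19:52397849-52418412, plus strand), which has an annotated antisense gene, was at 27.0, 29.7 and 28.5 CPM in WT, 67.5, 62.0 and 66.8 CPM in the 11H1 libraries and 35.8, 36.2 and 36.9 CPM for 14B5. Its log2FC was 1.21 in 11H1 (SE 0.0561, adjusted p = 6.58e-09) and 0.34 in 14B5 (adjusted p = 0.000340), a gap between the clones of 0.86 (adjusted p = 5.25e-08, edgeR). Of the 21 falls in 11H1 those of *ZNF728* and *ZNF608*, both with a WT mean under 1 CPM, were the largest, and the next 5 were *ZNF697*, *ZNF821*, *ZNF622*, *ZNF676* and *ZNF775*. *ZNF775* was at 4.03, 4.42 and 3.57 CPM in WT, 2.49, 2.62 and 2.49 CPM in the 11H1 libraries and 3.95, 3.796 and 3.32 CPM for 14B5, so 11H1 lay below both other groups, and its log2FC in 11H1 was −0.66 (adjusted p = 0.000593 in edgeR).

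By the same limits, the largest rises in 14B5 versus WT beside *ZNF665* and *ZNF525* were those of *ZNF878*, *ZNF558* and *ZNF709*, all KRAB members of runs 1 and 2. *ZNF558*, known as a repressor of *SPATA18* in human neural progenitors, was at 37.3, 36.6 and 39.5 CPM in WT, 62.6, 57.9 and 59.3 CPM in the 11H1 libraries and 74.9, 71.3 and 71.1 CPM for 14B5. Its log2FC was 0.92 in 14B5 (adjusted p = 2.20e-07) and 0.67 in 11H1 (adjusted p = 4.54e-07, both in edgeR). *ZNF878* was at 1.87, 1.57 and 2.07 CPM in WT and 3.59, 3.78 and 3.22 CPM in 14B5, a log2FC of 0.93 (adjusted p = 0.000285 in edgeR). *ZNF709* was at 3.46, 4.65 and 4.47 CPM in WT and 8.13, 7.93 and 7.26 CPM in 14B5, a log2FC of 0.87 (adjusted p = 0.000170 in edgeR). *ZNF878* and *ZNF709* overlap other protein-coding annotations on the same strand, so their reads could be divided.

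Of the 29 falls in 14B5 those of *ZNF728* and *ZNF608* were again the largest, and *ZNF676*, *ZNF727*, *ZNF697*, *ZNF781* and *ZNF778* came next. *ZNF781* was at 1.53, 1.51 and 0.972 CPM in WT, 1.504, 1.28 and 1.25 CPM in the 11H1 libraries and 0.903, 0.636 and 0.713 CPM for 14B5, a log2FC of −0.87 in 14B5 (adjusted p = 0.00878 in edgeR). *ZNF778* was at 13.2, 13.7 and 15.8 CPM in WT, 16.2, 16.1 and 14.1 CPM in the 11H1 libraries and 8.40, 9.53 and 8.61 CPM for 14B5, a log2FC of −0.70 in 14B5 (adjusted p = 0.000102 in edgeR). *ZNF781* overlaps *ZFP30* on the same strand. In both genes 14B5 lay below the other groups and 11H1 overlapped WT.

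Between the clones, *ZNF789* and *ZNF793* joined *ZNF723*, *ZNF676* and *ZNF727* as the 5 members most raised in 11H1 by the same limits. *ZNF789*, which overlaps *ZNF394* on the opposite strand, was at 30.4, 30.8 and 27.3 CPM in WT, 48.0, 50.8 and 47.7 CPM in the 11H1 libraries and 24.0, 24.9 and 26.4 CPM for 14B5. The clones thus stood on opposite sides of WT, with a log2FC of 0.73 in 11H1 (adjusted p = 5.48e-07) and −0.25 in 14B5 (adjusted p = 0.00732), and 11H1 stood 0.97 above 14B5 (SE 0.0519, adjusted p = 3.67e-08, edgeR). *ZNF793* was at 5.75, 5.22 and 4.81 CPM in WT, 11.9, 11.2 and 12.5 CPM in the 11H1 libraries and 7.09, 6.25 and 5.52 CPM for 14B5, a gap of 0.93 between the clones (adjusted p = 4.28e-06 in edgeR), and it has an annotated antisense gene.

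The members most raised in 14B5 over 11H1 were *ZNF627*, *ZNF775*, *ZNF593*, *ZNF524* and *ZNF672*, of which *ZNF627* alone has a KRAB motif. *ZNF627* was at 34.4, 36.8 and 40.6 CPM in WT, 26.9, 25.8 and 26.7 CPM in the 11H1 libraries and 40.4, 40.5 and 36.8 CPM for 14B5, a log2FC of −0.56 in 11H1 over 14B5 (adjusted p = 2.98e-06 in edgeR). *ZNF593*, known from assembly of the large ribosomal subunit, was at 15.5, 17.8 and 13.9 CPM in WT, 14.2, 13.6 and 12.3 CPM in the 11H1 libraries and 19.5, 18.4 and 18.5 CPM for 14B5 (log2FC −0.48, adjusted p = 5.74e-05 in edgeR). *ZNF524* was 7.39, 8.31 and 7.63 CPM in the 11H1 libraries and 11.1, 10.3 and 10.7 CPM for 14B5 (−0.46, adjusted p = 0.000178 in edgeR). *ZNF672* was 52.3, 58.4 and 52.0 CPM in the 11H1 libraries and 78.2, 72.3 and 67.0 CPM for 14B5 (−0.41, adjusted p = 0.000136 in edgeR).

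*ZNF521*, a cofactor known from early haematopoietic progenitors and AML, was added after its values were seen. It was at 90.4, 87.8 and 104 CPM in WT, 93.6, 86.8 and 92.5 CPM in the 11H1 libraries and 67.7, 69.5 and 67.2 CPM for 14B5. Only the 14B5 libraries stood apart, with a log2FC of −0.48 against WT (SE 0.0639, adjusted p = 0.000135) and of 0.42 in 11H1 over 14B5 (adjusted p = 7.55e-06, both in edgeR).

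A list of 30 silencing genes, which holds partners of KRAB proteins and more general silencing factors, was expressed throughout. It covers TRIM28, SETDB1 and its cofactors, HP1 proteins, the HUSH complex, NuRD, H3K9 methyltransferases and DNA methyltransferases, among others. The list gave 10 higher and 1 lower in KO versus WT with a median log2FC of 0.16. In 11H1 19 were higher and 3 lower (median 0.26), in 14B5 9 and 4 (0.07), and between the clones 18 were higher in 11H1 and 3 lower (0.15). The background shares are those given above for the members.

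*TRIM28* itself averaged 1092 CPM in WT (SD 28.2, n = 3) and 1068 CPM in KO (SD 36.1, n = 6), a log2FC of −0.03 (adjusted p = 0.695 in edgeR), and did not pass the test. *SETDB1* was at 56.3 ± 1.41 CPM in WT and 67.3 ± 6.24 CPM in KO, a log2FC of 0.26 (adjusted p = 0.0364 in edgeR). By clone it averaged 72.4 CPM in 11H1 (log2FC 0.37, adjusted p = 3.64e-05) and 62.2 CPM in 14B5. In 14B5 it did not pass the test (log2FC 0.13, adjusted p = 0.0586, both in edgeR). The other genes of the list that rose in KO were *ATF7IP2*, a partner of SETDB1, at 0.59, *ATRX*, a chromatin remodeller, at 0.48, the H3K9 methyltransferases *SUV39H1* at 0.46 and *SUV39H2* at 0.39, the DNA methyltransferases *DNMT3B* at 0.40 and *DNMT1* at 0.35, the maintenance methylation factor *UHRF1* at 0.37, the remodeller *HELLS* at 0.35 and the HUSH subunit *MPHOSPH8* at 0.19, with adjusted p from 0.000148 to 0.0481 in edgeR. *CBX1*, which encodes HP1 beta, was the gene that fell, from 105.9 ± 0.854 CPM in WT (SD, n = 3) to 93.4 ± 4.02 CPM in KO (SD, n = 6). Its log2FC was −0.18 (adjusted p = 0.0233 in edgeR). Among the genes that rose, *MPHOSPH8* also did not pass in 14B5 alone (log2FC 0.11, adjusted p = 0.0645 in edgeR). Tested directly, 11H1 stood above 14B5 for every gene that rose except *SUV39H1*, *SUV39H2* and *UHRF1*, where the clones did not differ.

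Transcript composition was looked at because it can bias counts. Member transcripts had a median GC content of 43.1% and a median length of 4004.5 bases, against 49.1% and 3158 bases over all protein-coding genes. With the trend of log2FC on GC content and length removed, an alternative chosen after seeing the data, the median log2FC of members was 0.25 in KO, 0.33 in 11H1, 0.17 in 14B5 and 0.11 between the clones. RSEM gives values that are not whole where it shares a read between several matching genes. Among genes at 0.5 CPM or more in a library, 29.9% to 38.7% of KRAB members had such a value, against 5.56% to 17.6% of the other members and 14.6% to 16.3% of all protein-coding genes. This share does not say how far any gene's level is off. In the annotation 88 members overlap another protein-coding gene, 22 overlap another member, 14 have a named antisense gene and 6 a named readthrough partner.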

How the data were processed

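RNA-seq of 9 SET2 libraries was analysed: WT, KO clone 11H1 and KO clone 14B5 (n = 3 each), grouped by sample title. Gene-level expected counts from RSEM were deposited, without normalization for depth or length. The submitters' processing notes name STAR 2.7.9a, Picard, RSEM and GRCh38, while the annotation release is not given in the sources used here. The paper describes stranded mRNA libraries and the labels another kit, and whether counting used strand is not given in the sources used here. The paper counts 5 KO libraries where the table holds 6, and all 6 were used. The table also held 92 spike-in entries, all at 0, which were removed. No column of per-library values was left out.

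Expected counts were rounded and tested in edgeR 4.0.16 (R 4.3.3): TMM scaling, filterByExpr, a quasi-likelihood F test on all genes, with p values adjusted by Benjamini-Hochberg and called under 0.05. Comparisons were KO against WT, 11H1 or 14B5 alone against WT, and 11H1 against 14B5. Members, lists and tests were chosen with earlier results of these data known. Named genes were *DYRK1A*, switched members and their neighbours, the 5 largest rises and falls per comparison (past the threshold, no overlap, mean of at least 1 CPM in the higher group), the 5 highest levels per kb, members beside the limits, and silencing genes past the threshold in KO versus WT.

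Positions, exon lengths and coding sequences came from GENCODE v29 (GRCh38), matched by gene identifier without version. Finger motifs (2 to 4 residues between cysteines, 12 to the first histidine, 3 to 5 between histidines) and a KRAB box pattern were counted in coding sequences translated from that release, in place of the RefSeq proteins first planned. Promoter windows came from RefSeq GRCh38.p14 and were matched by symbol.

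Alternatives were DESeq2 1.42.0 size factors and its Wald test, other filters, a fit of 3 groups, a replicate block, glmTreat, other limits for on and off, and each library left out. The steps were tested on simulated counts. Within groups no library was a copy of another (chi-square per gene 3.84 to 34.7).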

Additional observations from a re-analysis of the deposited data

Results flagged for a closer look

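*ZNF512*, among the highest members per kb, had a KO library apart from the rest. It was 119, 115 and 118 CPM in the 11H1 libraries and 128, 119.8 and 116 CPM for 14B5, and the gap of 14B5 library 1 to its nearest neighbour was 0.631 of the range of the 6 KO libraries, above the 95% limit of 0.625. Chance alone sets apart a library in about 1 of 20 groups.

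For 24 named members the clones differed when tested directly (edgeR, adjusted p under 0.05). The log2FC of 11H1 over 14B5 was 3.64 for *ZNF723*, 2.35 for *ZNF676*, 1.29 for *ZNF727*, 0.97 for *ZNF789*, 0.93 for *ZNF793*, 0.86 for *ZNF781* and *ZNF528*, 0.85 for *ZNF578*, 0.81 for *ZNF778*, 0.79 for *ZNF594*, 0.43 for *ZNF697* and 0.31 for *ZNF880*. It was −0.56 for *ZNF627*, −0.53 for *ZNF775*, −0.48 for *ZNF593*, −0.46 for *ZNF524*, −0.41 for *ZNF672*, −0.40 for *ZNF670*, −0.39 for *ZNF665*, −0.32 for *ZNF878*, −0.26 for *ZNF558* and *ZNF768*, −0.24 for *ZNF709* and −0.20 for *ZNF770*. Some of these members were named because of this comparison, so their number says nothing of the members at large.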

How the results depend on the processing

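The number of members lower in KO versus WT, 10, was 21 in a fit of 3 groups, 6 with the replicate block, 2 beyond a log2FC of 1 and 5 to 10 with a library left out. Beyond a log2FC of 1 the number higher went from 90 to 0, from 139 to 4 in 11H1, from 102 to 1 in 14B5 and from 87 to 3 between the clones, and the number lower from 21 to 2, from 29 to 5 and from 32 to 0, since that test asks for a larger change. The median log2FC of members in 11H1, 0.32, was 0.28 with no filter on low counts, which tests 235 members in place of 221, and 0.28 to 0.34 with a library left out. Members switched off in 11H1, in 14B5 and in both clones numbered 0 each with on at 1 CPM. With off at 0.2 CPM 2 members were switched off in 14B5 and 1 was on in 11H1 and off in 14B5, and with a library left out these counts were 1 to 2 and 0 to 1. No other count or median over the members moved by more than 1.5 times or more than the spread between libraries. Among repeats of the named members' tests, 548 kept their side of the threshold, 39 lost it and none changed sign. Apart from a log2FC beyond 1, these losses were *ZNF727*, *ZNF594* and *ZNF821* in KO versus WT without the libraries named in the results, and *ZNF727* with the replicate block (adjusted p = 0.0988 in edgeR). Replicate numbers are shared between groups, but libraries of the same number did not deviate together (correlations −0.145 to 0.0581), so the block is not a pairing. At these depths members under about 0.1 CPM cannot be told from silent.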
